A study of Homo sapiens with 6 samples.

Results

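The RNA of 2 DKC1 knockdown lines, C6 and C3, was compared directly, with C3 as the reference. Both lines derive from SW620, an established human colorectal cancer cell line of epithelial type. The comparison takes the 4 libraries whose titles name C3 or C6, 2 a line, of 6 libraries in all; the other 2 carry a scrambled hairpin, add to the estimate of the spread between libraries and are set beside the lines. All 3 groups were made by lentiviral transfer of a short-hairpin RNA in a pLV vector and were kept under 1 µg/mL puromycin. C3 and C6 each carry a stable hairpin against DKC1, and the scramble cells carry a hairpin with no target. The design text names a pair of hairpins, shDKC1-2 and shDKC1-3; the sources used here give neither which of them C3 and C6 carry nor whether a line is a clone. Line, hairpin and DKC1 level therefore cannot be told apart in any difference below. C3 replicate 1 carries the genotype tag control but the title of a knockdown library, and it was grouped by that title.

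DKC1 encodes dyskerin, the catalytic protein of the H/ACA ribonucleoprotein particles. With a guide RNA these particles turn uridines of ribosomal and spliceosomal RNA into pseudouridine, and dyskerin also holds the RNA subunit of telomerase. Loss of dyskerin function is known from dyskeratosis congenita, and high DKC1 expression has been described in colorectal tumours.

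Total counts ranged from 26077966 to 31021000 a library, at which 3 counts correspond to 0.0967 to 0.115 CPM before TMM factors. This floor covers counting error only. The CPM of genes are counts scaled to a common library size, with TMM factors. Libraries are titled biological replicates, with no word on whether they came from separate cultures, so p-values measure only the spread between these libraries, which may be technical. Of 13 colorectal epithelial markers, 6 stood at 5 CPM or more in every library and CDX1 was at 0 in all. The fibroblast markers COL1A2, COL3A1, DCN and FAP, the leukocyte markers PTPRC, CD3E, MS4A1 and FCGR3A and the endothelial markers CDH5, CLDN5 and ERG were at 0 in all libraries. Of the 4 fibroblast markers tested, LUM (22.2 and 26.5 CPM in C3, 11.8 and 11.4 CPM in C6), COL1A1 and PDGFRB were called lower in C6, and THY1 was called higher, at 0.355 and 0.249 CPM in C3 and 3.68 and 3.49 CPM in C6. Of 3 leukocyte markers tested CD4 was called, higher in C6, at 3.71 and 4.09 CPM in C3 and at 13.8 and 14.6 CPM in C6. Of 3 endothelial markers tested VWF was called, also higher, at 2.78 and 2.42 CPM in C3 and at 5.24 and 4.89 CPM in C6.

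DKC1 itself differed between the lines. Its transcript (chrX:154762864-154777689, GRCh38.p14) stood at 144 and 149 CPM in C3 and at 70.3 and 67.1 CPM in C6, against 319.7 and 315 CPM in scramble. Both C6 libraries lay below both C3 libraries, at 46.8% of the C3 mean. The log2 difference C6 minus C3 was −1.10 ± 0.06 (SE), with an adjusted p of 1.7e-09 (edgeR, quasi-likelihood test, Benjamini-Hochberg adjustment over all genes tested); unless said otherwise, every adjusted p and every call below (adjusted p under 0.05) is from that test. C3 itself stood at 46.3% of the scramble mean and C6 at 21.7%.

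Over all genes, 6538 of 13299 tested, or 49.2%, were called. Of all tested genes 25.1% were higher and 24.1% lower in C6 than in C3, 3339 and 3199 genes. These shares are the background for every list count below, unless a library was left out or another fit is named. The median log2 difference over all genes was 0.00 and the median size of a called difference was 0.50 on the log2 scale. At least 2-fold differences were called for 728 genes that were higher (5.47% of those tested) and 607 that were lower (4.56%), and at least 4-fold differences for 227 and 195. The libraries of C3 and those of C6 did not overlap for 6537 of the 6538 called genes, and for 9851 of all genes tested. For 652 of the 1335 genes that differed at least 2-fold, both scramble libraries lay between the lines; they lay above both lines for 181, below both for 53, and overlapped a line for 449. Calls numbered 5155 without C3 replicate 1 and 5519 without C6 replicate 2, the lowest and highest counts when 1 knockdown library was left out. In 17 stretches of chromosome, described at the end, neighbouring genes differed together. Values called relative to neighbours below come from an alternative fit in which 5993 genes were called. In that fit the running median of 51 neighbouring genes was removed along the autosomes and chromosome X, inside and outside those stretches. In bulk RNA, fewer cells that express a gene and less of its RNA per cell cannot be told apart, here and in every result that follows.

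**Figure D1:**
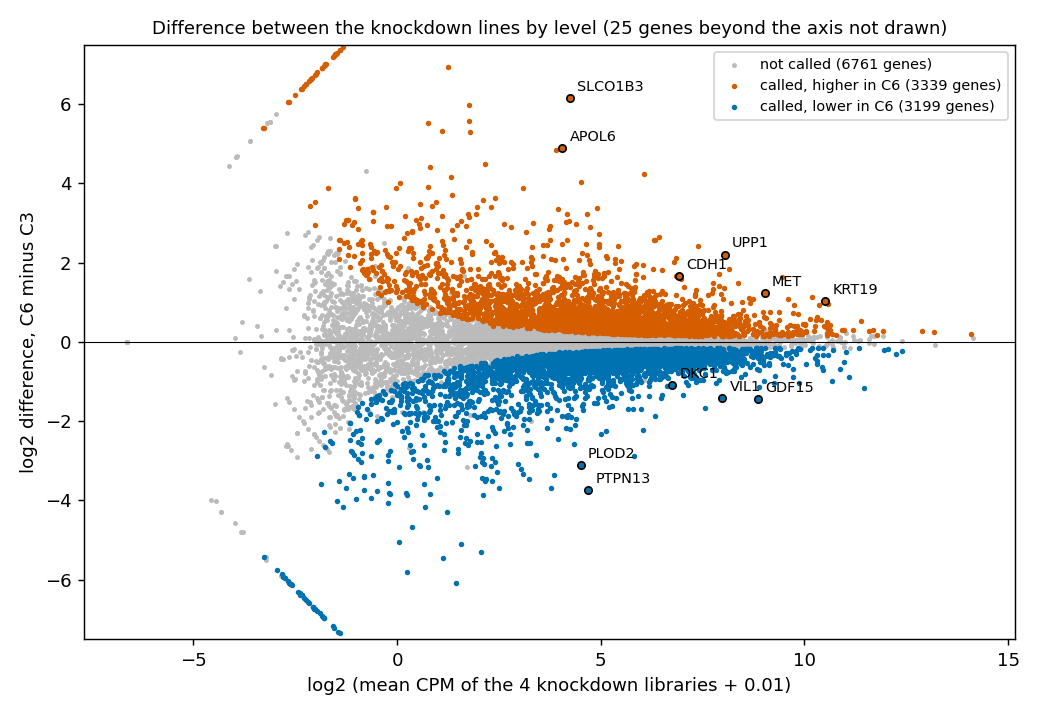
Each point is 1 of the 13299 genes tested, with its mean level on the horizontal axis (log2 CPM) and its log2 difference C6 minus C3 on the vertical axis; called genes are coloured by direction. The 3339 higher and 3199 lower calls spread over the whole range of levels, DKC1 lies at −1.10, 25 genes lie beyond the vertical axis, and the diagonal strings of points at low levels are genes with few counts in a line, whose fitted values depend on the prior count.

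Of the called genes with a mean of at least 5 CPM over the 4 knockdown libraries, the one with the largest rise in C6 was SLCO1B3 (chr12:20810705-20916911), an organic anion transporter of the hepatocyte membrane. It was measured at 0.258 and 0.818 CPM in C3, at 37.4 and 37.6 CPM in C6 and at 27.7 and 30.8 CPM in scramble. The C3 libraries thus stood apart from the other 4, and the difference was 6.14 ± 0.22 (log2, SE; adjusted p = 1.1e-10). SLCO1B3 overlaps the readthrough gene SLCO1B3-SLCO1B7, whose reads could be shared with it.

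APOL6, an apolipoprotein L gene induced by interferon, stood at 1.19 and 0.961 CPM in C3 and at 30.8 and 33.5 CPM in C6, with scramble at 2.38 and 2.87 CPM. Here the C6 libraries were the ones that stood apart, by 4.89 ± 0.16 from C3 (adjusted p = 1.1e-11). KLRC2, a natural killer cell receptor gene with near-identical neighbours among which reads may be split, stood at 0.968 and 1.03 CPM in C3 and at 30.8 and 27.2 CPM in C6 (4.85 ± 0.17, adjusted p = 1.3e-11).

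Further down the same list, SPRR2D, a cornified envelope protein, was higher by 4.04 and SLC38A4, an amino acid transporter, by 3.87. The matrix metalloproteinase MMP7 rose by 3.63, from 0.678 and 0.889 CPM to 9.61 and 9.85 CPM. ATP6V0A4, a subunit of the proton-pumping V-ATPase, was higher by 3.39, the axon guidance receptor ROBO2 by 3.36, the orphan receptor GPR35 by 3.22, the plasma membrane calcium pump ATP2B4 by 3.22 and FA2H, which hydroxylates the fatty acids of sphingolipids, by 3.05. In each of these 8 genes both C6 libraries lay above both C3 libraries, as the rule that chose them required.

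CALB1, the calcium-binding protein calbindin, was measured at 0 counts in both C3 libraries and at 9.65 and 7.77 CPM in C6. The C6 mean was about 82 times a floor of 3 counts per library in C3 (0.106 CPM before TMM factors). No gene showed the reverse, at most 3 counts in each C6 library and at least 5 CPM in each C3 library; a count of 0 from this rule has no test.

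Among the called genes that were lower in C6 and had a mean of at least 5 CPM, PTPN13 (chr4:86594315-86815161), a large non-receptor tyrosine phosphatase, differed most. It stood at 48.4 and 47.6 CPM in C3, at 3.23 and 3.92 CPM in C6 and at 25.1 and 29.6 CPM in scramble (−3.74 ± 0.13, adjusted p = 1.2e-11). BCHE, butyrylcholinesterase, stood at 10.2 and 10.9 CPM in C3 and at 0.873 and 0.755 CPM in C6, with scramble above both lines at 18.2 and 20.03 CPM (−3.68 ± 0.19, adjusted p = 6.6e-10). For both genes the C6 libraries were the lowest of the 6.

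SEMA6A, a transmembrane semaphorin, differed by −3.50, the adhesion receptor ADGRL2 by −3.45, LHFPL6 by −3.37, the matrix protein SMOC2 by −3.33 and NREP by −3.28. The zinc finger factor ST18 differed by −3.19, from 15.4 and 14.0 CPM in C3 to 1.60 and 1.62 CPM in C6. PLOD2, a collagen lysyl hydroxylase, differed by −3.10, the hepatic lipase LIPC by −3.07 and CCND2, the G1 cyclin D2, by −3.03. For 17 of the 22 genes described with the largest differences both scramble libraries lay between the lines, beside 652 of the 1335 called genes that differed at least 2-fold. A choice by the size of the difference between the lines favours that order. The scramble libraries lay above both lines for BCHE, PLOD2 and LIPC, below both for ROBO2, and overlapped C3 for SLC38A4. SEMA6A, NREP, ST18, LIPC and CCND2 each overlap an annotated antisense gene, and the sources used here do not say how the authors' counting treated the strand.

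**Figure D2:**
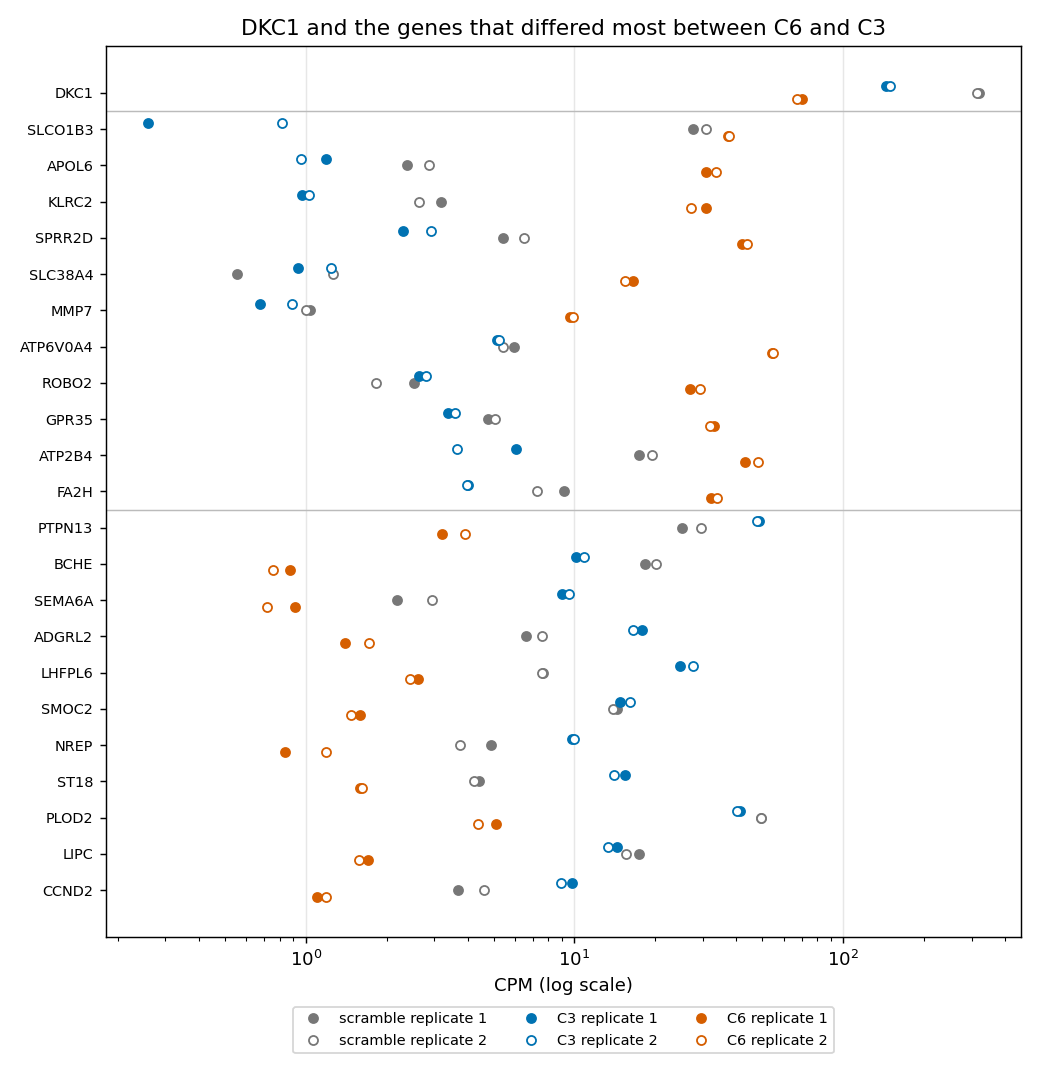
Level in each of the 6 libraries (CPM, log axis) for DKC1 and for 22 genes with the largest differences C6 minus C3, 11 higher and 11 lower in C6; filled points are replicate 1 and open points replicate 2. The points of C3 and C6 do not overlap in any row, which the choice of the 22 genes, but not that of DKC1, required. The grey scramble points lie between them in 17 of the 22 rows under DKC1.

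The other H/ACA genes were at most modestly apart. Among the 4 core proteins of the particle, DKC1 was the one called; NOP10 stood at −0.02, NHP2 at −0.08 and GAR1 at −0.15, with adjusted p of 0.805, 0.411 and 0.340. All 7 assembly factors listed were lower in C6, with a median of −0.34 beside 0.00 over all genes. PIH1D1, a subunit of the R2TP co-chaperone, stood at 44.4 and 48.2 CPM in C3 and at 29.2 and 28.9 CPM in C6 (−0.67 ± 0.08, adjusted p = 6.8e-06). NAF1, which occupies the place of GAR1 in the maturing particle, stood at 45.3 and 47.3 CPM in C3 and at 33.4 and 36.7 CPM in C6 (−0.40 ± 0.08, adjusted p = 9.6e-04), and the nucleolar protein TCOF1 at −0.36. The libraries of the lines did not overlap for these 3 genes. Of the 11 H/ACA genes 8 were lower, and 5 without C3 replicate 2. Among 12 pseudouridine synthases that work without a guide, 4 were lower and 0 higher, with a median of −0.12 (−0.16 without C3 replicate 2). Of these 12 genes 33.3% were called, a smaller share than the 49.2% of all genes (25.1% higher and 24.1% lower). RPUSD4, a mitochondrial enzyme, stood at −0.52 and TRUB1 at −0.39. Of the 4 box C/D proteins, which carry out guided 2′-O-methylation, NOP58 (−0.61) and NOP56 (−0.26) were lower, at −0.22 and −0.52 relative to neighbours.

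Of 9 telomerase and shelterin genes 6 were higher and 2 lower in C6, with a median of 0.35 (0.13 relative to neighbours). TERT, the reverse transcriptase of telomerase, stood at 1.81 and 2.31 CPM in C3 and at 4.14 and 4.89 CPM in C6, with scramble at 2.38 and 2.05 CPM (1.13 ± 0.25, adjusted p = 0.00152). Both C6 libraries were thus above the other 4. The shelterin genes TINF2 (0.60), TERF2 (0.43), POT1 (0.42) and ACD (0.29) were higher, and TERF2IP (−0.29) and TERF1 (−0.27) were lower. TERT and POT1 lie in stretches where C6 was higher. Relative to neighbours TERT stood at 0.68 (adjusted p = 0.0377), POT1 at 0.00, ACD at 0.13 and TERF1 at −0.06, the last 3 not called, and the list held 4 higher genes and 1 lower. Without C6 replicate 2 or C3 replicate 2 the lower genes numbered 1.

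Genes of epithelial junctions and of the surface facing the matrix were called higher in C6 more often than lower. Of 29 epithelial markers tested, 17 were higher and 3 lower, with a median of 0.59; when each knockdown library was left out in turn the counts were 15 to 16 and 1, so the lower ones numbered 1 without any of the 4. CDH1, E-cadherin of the adherens junction, stood at 60.3 and 55.9 CPM in C3 and at 175 and 190.2 CPM in C6, with scramble highest at 220.4 and 230.3 CPM. The difference between the lines was 1.65 ± 0.07 (adjusted p = 1.0e-10). ST14, the membrane protease matriptase, stood at 13.4 and 13.2 CPM in C3 and at 67.0 and 76.6 CPM in C6 (2.43 ± 0.09, adjusted p = 1.4e-11), also below scramble at 119 and 122.8 CPM. In both genes C3 held the lowest libraries.

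The tight junction protein CLDN4 stood at 87.2 and 97.5 CPM in C3 and at 228 and 234 CPM in C6, above scramble at 86.2 and 79.4 CPM (1.32 ± 0.07, adjusted p = 1.1e-09), and plakoglobin, JUP, was higher by 0.99. Relative to neighbours CLDN4 stood at 0.93 and JUP at 0.81. EPCAM, a surface marker of epithelial cells, was not called (−0.13, adjusted p = 0.134). Of 13 mesenchymal markers tested, 5 were higher and 3 lower, with counts of 3 to 6 and 2 to 3 when each knockdown library was left out (3 higher without C3 replicate 2 or C6 replicate 2). The intermediate filament VIM stood at 971 and 1048 CPM in C3 and at 1478 and 1483 CPM in C6 (0.55), S100A4 was higher by 0.69 and the receptor kinase AXL by 0.53. The actin-binding protein TAGLN was lower, at 48.0 and 49.6 CPM in C3 against 17.8 and 19.7 CPM in C6 (−1.38 ± 0.11, adjusted p = 1.0e-07). VIM and CDH1 were thus higher in the same line.

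Keratins, the intermediate filaments of epithelia, were higher in 8 of 9 cases and lower in 0, with a median of 1.03 and the same counts without each knockdown library. KRT19 stood at 953 and 961 CPM in C3 and at 1963 and 1934 CPM in C6, and scramble lay between at 1203 and 1097 CPM (1.03 ± 0.06, adjusted p = 3.0e-09). KRT7 (1.04), KRT81 (1.18) and KRT86 (1.20) were higher by similar amounts; KRT81 and KRT86 overlap and are close in sequence, so their reads may be shared. The most abundant pair of simple epithelia differed less, KRT8 by 0.28 and KRT18 by 0.29, or 0.17 for each relative to neighbours.

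Integrins link the cell to the matrix. Of 15 tested, 10 were higher, among them 6 of 7 beta chains, and 2 lower, with a median of 0.60 (0.23 with no filter on low counts). ITGA3 stood at 17.2 and 13.9 CPM in C3 and at 66.8 and 66.2 CPM in C6, with scramble between at 31.5 and 34.4 CPM (4.27-fold, adjusted p = 3.5e-10). ITGB4, the beta chain of the hemidesmosome integrin, which binds laminin 332, stood at 137 and 127 CPM in C3 and at 322 and 375 CPM in C6 (1.40 ± 0.08, adjusted p = 5.0e-09). ITGB7 was higher by 2.89 and ITGB5 by 0.76. C3 was the lowest of the 3 groups for ITGA3, ITGB4 and ITGB7, with no overlap between the lines.

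**Figure D3:**
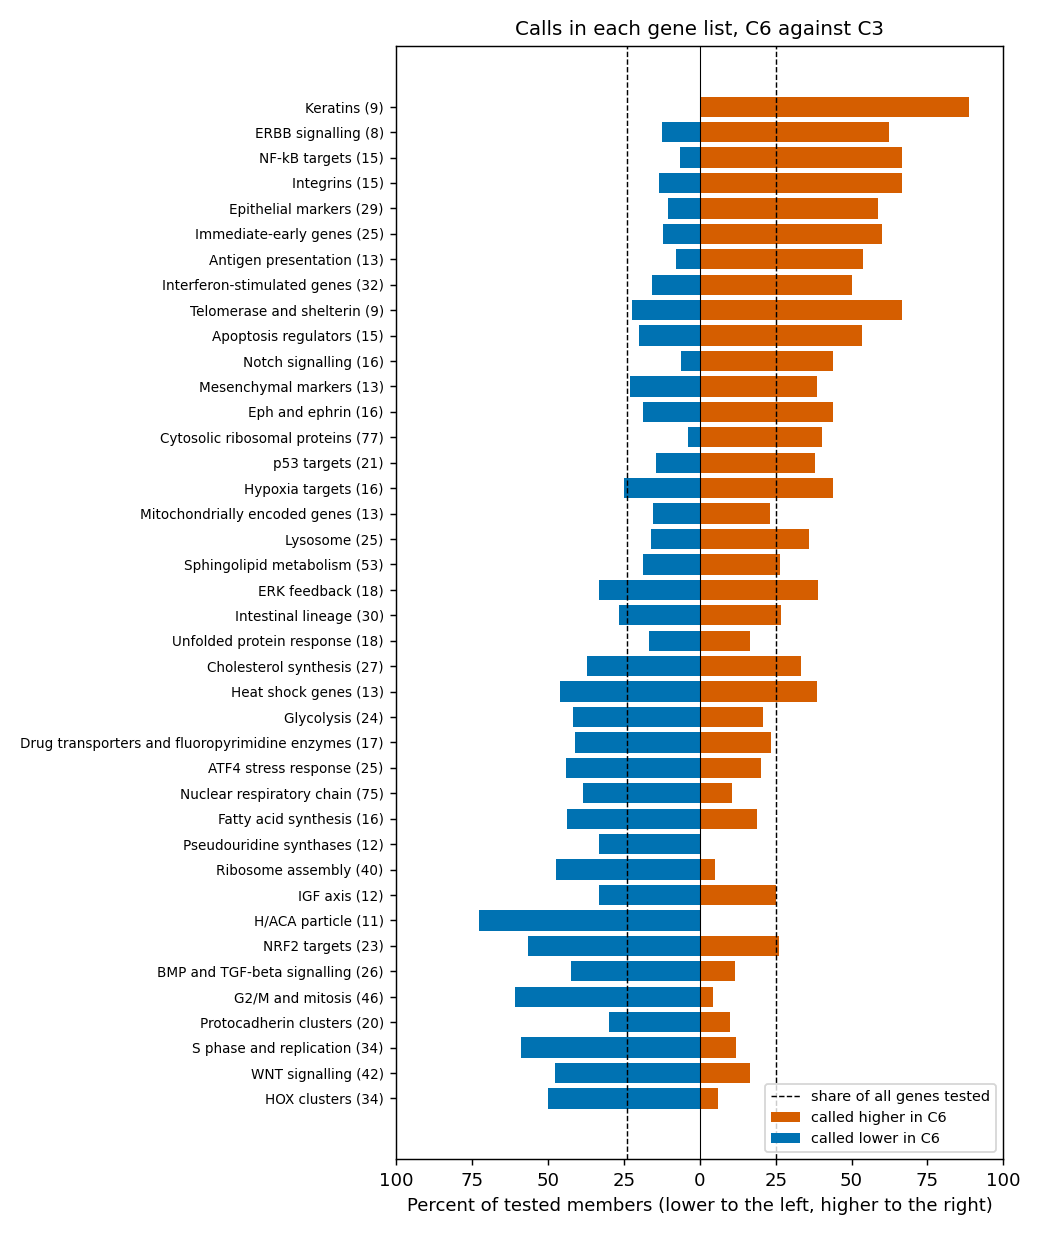
For each gene list with at least 5 tested genes, the share of its tested genes called higher and called lower in C6 than in C3 (percent), with the shares over all genes tested, 25.1% and 24.1%, as reference lines. Keratins (8 of 9 higher) and G2/M genes (28 of 46 lower) lie far from those lines on opposite sides.

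Interferon-stimulated genes were compared next. Interferons act through transcription factors that bind an interferon-stimulated response element upstream of the genes they induce. A simple form of that element, GAAANNGAAA on either strand (overlapping matches counted), was looked for in the 250 bases before the gene start. It was found for 13 of the 21 listed genes that had an entry in RefSeq's table of promoters (GRCh38.p14), or 61.9%, against 2.29% of the promoters of all tested genes and 3.07% of all promoters in that table. Printed here are the promoters of 3 genes that were higher in C6 (IFIH1, SAMD9 and ISG15) and 1 that was lower (IFI6), each holding the motif, which is in capitals; the sequences run 5′ to 3′ towards the start of the gene. They lie at chr2:162318685-162318934 (minus strand), chr7:93117980-93118229 (minus strand), chr1:1013247-1013496 (plus strand) and chr1:27672193-27672442 (minus strand).
IFIH1: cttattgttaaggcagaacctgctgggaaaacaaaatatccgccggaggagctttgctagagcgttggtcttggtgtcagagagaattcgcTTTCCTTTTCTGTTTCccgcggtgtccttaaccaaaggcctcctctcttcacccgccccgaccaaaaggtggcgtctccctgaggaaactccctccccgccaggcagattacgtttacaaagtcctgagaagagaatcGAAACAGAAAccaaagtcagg
SAMD9: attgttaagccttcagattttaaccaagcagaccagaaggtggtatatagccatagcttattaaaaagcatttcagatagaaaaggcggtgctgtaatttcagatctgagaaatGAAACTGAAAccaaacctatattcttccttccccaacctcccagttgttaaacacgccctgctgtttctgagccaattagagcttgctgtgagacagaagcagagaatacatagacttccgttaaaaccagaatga
ISG15: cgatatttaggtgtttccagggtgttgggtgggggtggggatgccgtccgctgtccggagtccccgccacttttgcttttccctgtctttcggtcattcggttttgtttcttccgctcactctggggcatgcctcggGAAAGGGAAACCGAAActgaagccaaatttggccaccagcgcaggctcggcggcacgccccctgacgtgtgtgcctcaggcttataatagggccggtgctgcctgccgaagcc
IFI6: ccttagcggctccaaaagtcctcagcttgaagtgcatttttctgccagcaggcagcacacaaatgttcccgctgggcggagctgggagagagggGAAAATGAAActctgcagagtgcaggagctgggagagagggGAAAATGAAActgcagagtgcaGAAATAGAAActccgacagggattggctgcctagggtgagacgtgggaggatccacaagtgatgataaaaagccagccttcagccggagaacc
The motif occurs 3 times for IFIH1, 1 time for SAMD9, 2 times for ISG15 in overlap and 3 times for IFI6, so genes on both sides of the comparison hold it. Of the 13 listed genes with the motif 7 were higher, 2 lower and 4 not called. Of the 8 without it 3 were higher and 1 lower. Over all genes tested 25.1% were higher and 24.1% lower. Whether calls differed with the motif was not tested. A match describes the letters only, and binding was not measured.

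Of 32 interferon-stimulated genes tested, 16 were higher and 5 lower in C6, with a median of 0.39 (0.64 without C3 replicate 2 and 0.62 without C6 replicate 1). IFIH1, the cytosolic double-stranded RNA sensor MDA5, stood at 4.07 and 3.66 CPM in C3, at 33.5 and 30.2 CPM in C6 and at 8.58 and 10.4 CPM in scramble (3.04 ± 0.13, adjusted p = 1.9e-10). The exonuclease gene ISG20 stood at 8.10 and 7.40 CPM in C3 and at 19.4 and 20.5 CPM in C6 (1.36 ± 0.12, adjusted p = 1.8e-07). SAMD9, an antiviral factor, stood at 8.23 and 7.97 CPM in C3 and at 19.9 and 20.3 CPM in C6 (1.31 ± 0.11, adjusted p = 1.8e-07), and at 1.00 relative to neighbours. For these 3 genes and APOL6 scramble lay between the lines.

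The ubiquitin-like modifier ISG15 was higher by 0.80 (adjusted p = 1.4e-05). IFI6 was lower, at 13.2 and 15.6 CPM in C3 and at 7.29 and 5.68 CPM in C6 (−1.15 ± 0.19, adjusted p = 2.5e-04). The list thus held members on both sides; 2 were lower without C3 replicate 1, C6 replicate 1 or C6 replicate 2, and 12 to 15 higher without each of the 4.

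Antigen presentation genes were higher in 7 of 13 cases and lower in 1, with a median of 0.40 (0.26 without C6 replicate 1 and 0.23 relative to neighbours). HLA-B, a class I heavy chain whose alleles and paralogs share sequence, stood at 15.5 and 18.2 CPM in C3 and at 38.6 and 40.0 CPM in C6, beside 38.9 and 41.6 CPM in scramble (1.23 ± 0.10, adjusted p = 7.5e-08). C3 alone stood apart here. The immunoproteasome subunit PSMB8 was higher by 1.04, HLA-E by 0.79 and the peptide-loading factor TAPBP by 0.67. Lower genes numbered 2 without C3 replicate 1.

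Targets of NF-kB, a transcription factor of inflammation and survival, had a median of 0.95, with 10 of 15 higher and 1 lower. BIRC3, an inhibitor of apoptosis, stood at 11.4 and 10.1 CPM in C3 and at 45.3 and 39.4 CPM in C6, with scramble between at 18.4 and 17.9 CPM (1.97 ± 0.11, adjusted p = 1.5e-09). The chemokines CXCL8 and CCL20 were higher by 1.13 and 1.18. CXCL8 stood at 15.8 and 17.4 CPM in C3 and at 38.5 and 34.2 CPM in C6, both above scramble at 11.1 and 10.2 CPM. NFKB2, a subunit of the factor, was higher by 1.17. Higher targets numbered 8 to 10 when each knockdown library was left out.

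Growth factor signals also differed. ERBB receptors are tyrosine kinases whose ligands are shed from the cell surface. Of 5 ligands tested 4 were higher and 0 lower, with a median of 1.49. EREG, epiregulin, stood at 15.04 and 16.5 CPM in C3, at 52.3 and 52.2 CPM in C6 and at 22.5 and 24.3 CPM in scramble (1.73 ± 0.09, adjusted p = 1.1e-09). HBEGF stood at 23.3 and 24.0 CPM in C3 and at 67.7 and 64.9 CPM in C6 (1.49 ± 0.08, adjusted p = 1.5e-09). C6 lay above both other groups for both ligands.

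Among the receptors, EGFR was low throughout, at 0.129 and 0.285 CPM in C3, at 1.52 and 1.62 CPM in C6 and at 2.41 and 1.94 CPM in scramble (2.92 ± 0.50, adjusted p = 1.8e-04). ERBB3 was lower in C6, at 96.2 and 90.2 CPM in C3 against 57.9 and 62.2 CPM (−0.63 ± 0.07, adjusted p = 3.3e-06), and ERBB2 was not called (0.22, adjusted p = 0.0658; 0.30 and 0.0183 relative to neighbours). The hepatocyte growth factor receptor MET stood at 319 and 308 CPM in C3 and at 716 and 746 CPM in C6 (1.22 ± 0.06, adjusted p = 8.8e-10), in a stretch of chromosome 7 that was higher in C6, and at 0.76 relative to neighbours.

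Immediate-early genes, which respond within minutes to growth signals and stress, were higher in 15 of 25 cases and lower in 3 (median 0.42), and 14 to 15 were higher when each knockdown library was left out. KLF6 stood at 128 and 121 CPM in C3 and at 237 and 235 CPM in C6, both above scramble at 76.8 and 83.0 CPM (0.92 ± 0.06, adjusted p = 1.7e-08). IER5 was higher by 0.92 and the AP-1 subunit FOSL1 by 0.66; of 7 AP-1 genes 6 were higher and 0 lower. MYC, the growth-promoting transcription factor, was lower, at 1033 and 1042 CPM in C3 and at 643 and 648 CPM in C6, with scramble between at 852 and 860.3 CPM (−0.68 ± 0.05, adjusted p = 8.7e-08).

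Feedback genes of the ERK pathway were split, 7 higher and 6 lower of 18. The phosphatases DUSP5 (1.09) and DUSP4 (1.19) were higher, whereas DUSP6 (−0.64) and the inhibitor SPRY2 (−0.98) were lower. DUSP6 stood at 185 and 179 CPM in C3 and at 122 and 112 CPM in C6, below scramble at 216 and 225 CPM. DUSP4 lies in a stretch of chromosome 8 that was higher in C6 and SPRY2 in one of chromosome 13 that was lower, and they stood at 0.75 and −0.56 relative to neighbours.

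WNT signalling drives the proliferation of the intestinal crypt. Of 42 genes tested 7 were higher and 20 lower, with a median of −0.36 (−0.21 relative to neighbours and −0.18 with no filter on low counts). The ligand WNT11 stood at 9.20 and 9.29 CPM in C3, at 1.67 and 1.33 CPM in C6 and at 26.5 and 27.0 CPM in scramble (−2.62 ± 0.16, adjusted p = 5.1e-09). The receptor FZD6 stood at 36.7 and 35.2 CPM in C3 and at 9.72 and 12.3 CPM in C6 (−1.71 ± 0.11, adjusted p = 6.6e-09); of 14 receptors 8 were lower and 2 higher. C6 held the lowest libraries for both. In contrast the surface glycoprotein CD44, a WNT target, stood at 5.62 and 4.70 CPM in C3 and at 29.9 and 31.6 CPM in C6 (2.57 ± 0.12, adjusted p = 3.5e-10), and the secreted protein DKK3 was higher by 2.44.

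BMP and TGF-beta genes were lower in 11 of 26 cases and higher in 3, with a median of −0.27 (−0.17 relative to neighbours). GDF15, a stress-induced ligand of this superfamily, stood at 646 and 710.4 CPM in C3 and at 252 and 248 CPM in C6, with scramble between at 326 and 296 CPM (−1.44 ± 0.07, adjusted p = 2.5e-10). The activin subunit INHBB (−0.73) and the target ID2 (−1.16) were lower.

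Notch genes were higher in 7 of 16 cases and lower in 1. The ligand JAG1 stood at 506 and 483 CPM in C3, at 1019 and 1095 CPM in C6 and at 673 and 728 CPM in scramble (1.10 ± 0.06, adjusted p = 2.6e-09). The target HES4 was higher by 1.28 and LFNG, which modifies Notch, by 0.96 (0.58 relative to neighbours), while HES6, an antagonist of HES1, was lower (−1.64, or −1.33 relative to neighbours). Without C6 replicate 2 the lower genes numbered 3.

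Among insulin-like growth factor binding proteins 3 were higher and 3 lower of 6. IGFBP1 stood at 9.85 and 10.9 CPM in C3 and at 28.5 and 25.9 CPM in C6 (1.39), IGFBP3 was higher by 1.71 and IGFBP6 by 0.98. IGFBP2 was lower, at 33.3 and 32.9 CPM against 9.001 and 8.30 CPM (−1.94). Relative to neighbours IGFBP1 stood at 1.09, IGFBP3 at 1.41, IGFBP6 at 0.86 and IGFBP2 at −1.43. Eph receptors and ephrins, which act at contacts between crypt cells, were higher in 7 of 16 cases and lower in 3, with a median of 0.15 that turned to −0.02 without C3 replicate 2 and to −0.01 without C6 replicate 1. EFNB1 was higher by 0.83 and EPHA4 by 0.87, and EPHB3, a receptor of the crypt base, was lower (−0.75, or −0.48 relative to neighbours).

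Cell cycle genes were called lower in C6 more often than higher. Of 34 S phase and replication genes 20 were lower and 4 higher (median −0.33). UHRF1, which recruits the maintenance DNA methyltransferase, stood at 100.5 and 95.7 CPM in C3 and at 48.2 and 52.4 CPM in C6, with scramble between at 75.6 and 81.7 CPM (−0.96 ± 0.07, adjusted p = 5.5e-08). The replication genes POLD1 (−0.91), GINS2 (−1.16) and CDT1 (−0.80) were lower too. GINS2 and CDT1 lie in a stretch of chromosome 16 that was lower in C6, where GINS2 stood at −0.54 relative to neighbours and CDT1, at −0.03, was not called. The list held 21 lower and 0 higher genes relative to neighbours, and 2 higher genes without C3 replicate 1.

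Of 46 genes of G2 and mitosis 28 were lower and 2 higher (median −0.28), and 22 to 26 were lower when each knockdown library was left out; 1 was higher without C3 replicate 1 or C6 replicate 1. PLK1, a mitotic kinase, stood at 95.5 and 97.9 CPM in C3 and at 46.4 and 49.0 CPM in C6, with scramble at 88.0 and 87.5 CPM (−1.02 ± 0.07, adjusted p = 1.2e-08). TOP2A, which untangles DNA before division, stood at 491 and 490.0 CPM in C3 and at 314 and 323 CPM in C6 (−0.62). The spindle protein TACC3 (−0.93, or −0.26 relative to its neighbours on chromosome 4) and the kinetochore protein CENPF (−0.61) were lower as well. The C6 libraries were the lowest of the 6 for all 4 genes. The share of cells in each phase was not measured.

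Ribosomal proteins were called higher in C6 more often than lower, and the genes that assemble ribosomes the reverse. Of 77 cytosolic ribosomal proteins 31 were higher and 3 lower, with a median of 0.14, beside 25.1% and 24.1% of all genes. The higher ones numbered 14 (18.2%) without C3 replicate 1 and 15 (19.5%) without C6 replicate 1, beside 19.6% and 20.2% of all genes tested in those fits, so their share was then near that of all genes. The lower ones numbered 1 without C3 replicate 2. RPL37 stood at 897 and 918 CPM in C3 and at 1363 and 1326 CPM in C6 (0.57), RPS23 was higher by 0.55 and RPS12 by 0.42. RPL37 and RPS23 lie in a stretch of chromosome 5 that was higher in C6, where RPL37 stood at 0.30 relative to neighbours and RPS23, at 0.12, was not called. All these genes have processed copies in the genome that could take part of their reads. Of 40 ribosome assembly genes 19 were lower and 2 higher (median −0.19), with 1 higher without C3 replicate 1, C3 replicate 2 or C6 replicate 1. NCL, the nucleolar protein nucleolin, stood at 2141 and 2179 CPM in C3 and at 1102 and 1093 CPM in C6, with scramble between at 1875 and 1868 CPM (−0.98 ± 0.06, adjusted p = 2.1e-09). UTP20 (−0.79) and NOP14 (−0.82) of the small subunit processome and WDR12 (−0.69) of the large subunit pathway were also lower. NCL, NOP14 and WDR12 lie in stretches that were lower in C6. They stood at −0.65, −0.13 and −0.27 relative to neighbours, and NOP14 was then not called.

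Energy genes showed smaller differences. Of the nuclear respiratory genes 49.3% were called and of the mitochondrially encoded genes 38.5%. Among all genes the share was 49.2% (25.1% higher and 24.1% lower). Of 75 nuclear genes of the respiratory chain 29 were lower and 8 higher, with a median of −0.12 (−0.18 without C6 replicate 1 and −0.07 without C6 replicate 2); 21 to 27 were lower when each knockdown library was left out, and the higher ones numbered 3 without C3 replicate 1 or C6 replicate 1 and 5 without C3 replicate 2. COX4I1, a subunit of cytochrome c oxidase, stood at 178 and 199.7 CPM in C3 and at 104 and 99.9 CPM in C6 (−0.89 ± 0.07, adjusted p = 7.1e-08), in a lower stretch of chromosome 16, and at −0.22 relative to neighbours. The complex III core protein UQCRC2 (−0.66) and COX7B (−0.77) were lower. Of 13 mitochondrially encoded genes 3 were higher (CYTB 0.31, COX2 0.29 and COX3 0.25) and 2 lower, among them ND6 (−0.32), which is read from the other strand of the mitochondrial genome than those 3; 1 was lower without C3 replicate 1, C3 replicate 2 or C6 replicate 1. Glycolysis genes were lower in 10 of 24 cases and higher in 5, or 3 without C3 replicate 2 or C6 replicate 2. LDHA, lactate dehydrogenase, stood at 905 and 951 CPM in C3 and at 721 and 674 CPM in C6 (−0.41), both above scramble, and the lactate exporter SLC16A3 was higher by 0.53.

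Hypoxia targets were higher in 7 of 16 cases and lower in 4. Carbonic anhydrase CA9 stood at 26.5 and 31.8 CPM in C3 and at 88.1 and 84.4 CPM in C6 (1.57 ± 0.10, adjusted p = 1.9e-08) and NDRG1 was higher by 1.92, while the related enzyme CA12 was lower (−2.42). Higher targets numbered 4 without C3 replicate 1, C3 replicate 2 or C6 replicate 2, and lower ones 2 without C6 replicate 1. The 2 carbonic anhydrases of this list thus lay on opposite sides.

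Lipid genes were split. Cholesterol synthesis and uptake genes were higher in 9 of 27 cases and lower in 10; the higher ones numbered 5 without C6 replicate 1 or relative to neighbours. STARD4, a carrier of cholesterol within the cell whose gene overlaps an annotated antisense gene, stood at 26.5 and 27.0 CPM in C3, at 14.2 and 12.1 CPM in C6 and at 38.9 and 41.6 CPM in scramble (−1.03 ± 0.10, adjusted p = 9.1e-07). LSS, lanosterol synthase, was lower (−0.77). Of 16 fatty acid synthesis genes 7 were lower and 3 higher; FASN, fatty acid synthase, stood at 382 and 368 CPM in C3 and at 205 and 249 CPM in C6 (−0.72), ACSL3 was lower (−0.73), and the elongase ELOVL1 (1.02) and ACSL5 (1.04) were higher.

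Sphingolipid genes, which the title of the series names, were higher in 14 of 53 cases and lower in 10, beside 25.1% and 24.1% of all genes. SGPL1, which cleaves sphingosine 1-phosphate, stood at 155 and 150.2 CPM in C3 and at 272 and 308 CPM in C6 (0.93 ± 0.07, adjusted p = 2.3e-08). The glycosphingolipid enzyme B3GNT5 was higher by 0.85. The ceramide synthase CERS6 was lower (−0.61) in a stretch of chromosome 2 and was not called relative to neighbours (−0.03). In ceramide synthesis 3 of 15 genes were higher and 6 lower, and in sphingosine 1-phosphate metabolism 3 of 7 were higher and 0 lower.

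Stress pathways moved in both directions. Targets of p53 were higher in 8 of 21 cases and lower in 3. CDKN1A, the cell cycle inhibitor p21, stood at 6.10 and 5.94 CPM in C3, at 19.3 and 19.0 CPM in C6 and at 9.58 and 9.68 CPM in scramble (1.67 ± 0.12, adjusted p = 3.1e-08), and GADD45A was higher by 0.79. SW620 is known to carry mutant p53. Lower targets numbered 1 without C6 replicate 2 and 1 relative to neighbours.

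ATF4 targets of the integrated stress response were lower in 11 of 25 cases and higher in 5. PSAT1 of serine synthesis stood at 688 CPM in both C3 libraries and at 364 and 332 CPM in C6, with scramble between (−0.98 ± 0.06, adjusted p = 5.1e-09). NUPR1, a stress-induced chromatin protein, stood at 27.1 and 28.1 CPM in C3 and at 7.22 and 7.84 CPM in C6 (−1.87), and the amino acid transporter SLC7A5 was lower (−1.03) in the stretch of chromosome 16, where it stood at −0.26 relative to neighbours. The list held 11 lower and 3 higher genes relative to neighbours. NRF2 targets were lower in 13 of 23 cases and higher in 6, or 3 without C3 replicate 1; the antioxidant enzyme GPX2 stood at 206 and 215 CPM in C3 and at 110.2 and 116 CPM in C6 (−0.90), the malic enzyme ME1 was lower (−1.10), and the sulfiredoxin SRXN1 was higher by 0.52 (0.30 relative to neighbours).

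Among 13 heat shock genes 5 were higher and 6 lower. HSPE1 and HSPD1, the mitochondrial chaperonin pair that shares a promoter region on chromosome 2, were both lower. HSPE1 stood at 203 and 228 CPM in C3 and at 113 and 102 CPM in C6 (−1.01, or −0.69 relative to neighbours). HSPD1 stood at 2239.6 and 2375 CPM in C3 and at 1514 and 1381 CPM in C6 (−0.67, or −0.36 relative to neighbours). HSP90AA1 was lower (−0.63) and HSPA1A, whose reads cannot be separated from those of its near-identical copy HSPA1B, was higher by 0.72. Unfolded protein response genes were higher in 3 and lower in 3 of 18 cases. Of these 18 genes 33.3% were called, a smaller share than the 49.2% of all genes. DNAJB9 stood at 1.09 and the chaperones CALR at −0.59 and DNAJB11 at −0.65. Relative to neighbours DNAJB9 stood at 0.58 and DNAJB11 at −0.19.

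Among lineage genes, HOX clusters encode homeobox factors that specify position along the body axis. Of 34 HOX genes tested 17 were lower and 2 higher (median −0.37); 12 to 14 were lower and 1 higher when each knockdown library was left out, with 12 without C3 replicate 1. HOXB8 stood at 55.04 and 57.3 CPM in C3, at 20.1 and 22.9 CPM in C6 and at 24.9 and 23.8 CPM in scramble (−1.38 ± 0.09, adjusted p = 8.7e-09). HOXB9 stood at 205 and 192 CPM in C3 and at 105 and 112 CPM in C6 (−0.88), and HOXB6 was lower (−0.52). In these 3 HOXB genes C3 held the highest libraries. HOXD11 was lower too (−2.28), at 3.84 and 2.99 CPM against 0.646 and 0.755 CPM, in the stretch of chromosome 2. Relative to neighbours HOXD11 stood at −1.72.

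Intestinal genes were higher in 8 and lower in 8 of 30 cases, or 26.7% each way. That is near the 25.1% and 24.1% of all genes. The adhesion molecules CEACAM5 and CEACAM6, near relatives that share sequence, were higher in C6: CEACAM6 stood at 0.129 and 0.142 CPM in C3 and at 6.61 and 6.69 CPM in C6 (5.57 ± 0.39, adjusted p = 1.9e-08), and CEACAM5 was higher by 4.50. VIL1, villin of the brush border, stood at 376 and 364 CPM in C3 and at 136 and 140.0 CPM in C6 (−1.42 ± 0.06, adjusted p = 1.0e-10; −0.95 relative to neighbours), and the intestinal homeobox factor ISX was lower (−2.92). Higher genes numbered 5 without C6 replicate 1. MAGEB2 was the single cancer-testis gene tested, at 17.8 and 15.1 CPM in C3 and at 2.62 and 3.02 CPM in C6 (−2.54). Of 20 protocadherin genes, whose clusters share exons so that reads cannot be assigned with certainty, 6 were lower and 2 higher, with 2 lower without C3 replicate 1 or C6 replicate 1, 3 without C6 replicate 2 and 4 without C3 replicate 2.

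Genes of drug handling included large differences. UPP1, uridine phosphorylase, which acts on uridine and on fluorinated uridines, stood at 89.0 and 99.3 CPM in C3, at 437 and 431 CPM in C6 and at 194 and 179 CPM in scramble (2.20 ± 0.07, adjusted p = 4.6e-12). The multidrug transporter ABCB1 was lower, at 53.5 and 48.7 CPM in C3 against 20.5 and 16.1 CPM in C6 (−1.49 ± 0.11, adjusted p = 3.3e-08). ABCC3 was higher by 1.32 and ABCC4 was lower (−0.84, or −0.43 relative to neighbours). Of 17 such genes 4 were higher and 7 lower. The labels give no treatment of the cells beyond puromycin selection.

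Lysosome and autophagy genes were higher in 9 of 25 cases and lower in 4, with 2 lower without C3 replicate 1 or C3 replicate 2; SQSTM1, the autophagy receptor p62, stood at 412 and 438 CPM in C3 and at 722 and 703 CPM in C6 (0.74 ± 0.06, adjusted p = 9.4e-08), and WIPI1 was higher by 1.02. Apoptosis regulators were higher in 8 of 15 cases and lower in 3, and 4 were higher without C3 replicate 1 or C6 replicate 1 and 5 relative to neighbours. The survival factor BCL2L1 stood at 379 and 372 CPM in C3 and at 623 and 646 CPM in C6 (0.76), BCL2L2 was higher by 0.53, the killer protein BIK was higher by 1.08 and the killer protein BCL2L11 was lower (−0.55). Survival and killer genes were thus both among the higher ones.

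Position on the chromosome went with the differences. Genes were put in chromosome order and the median log2 difference of each gene and its neighbours, 51 in all, was followed. A run was a stretch of at least 20 genes with this median beyond 0.3 in 1 direction. There were 17 runs with 1472 genes, 10 higher and 7 lower in C6, and 69.1% of their genes were called against 46.8% outside runs. Since the runs were chosen by this same difference, that contrast is a description. With a limit of 0.4 in place of 0.3 the runs held 886 genes.

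**Figure D4:**
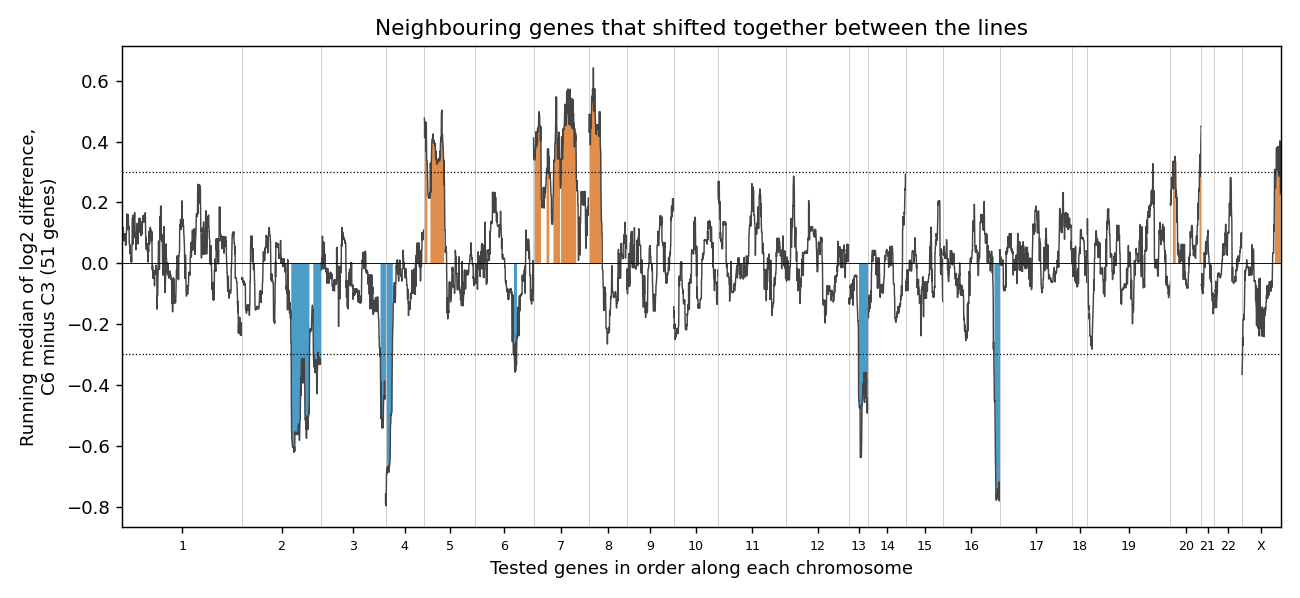
Running median over 51 neighbouring genes of the log2 difference C6 minus C3, plotted against gene order along the chromosomes, with lines at 0.3 and −0.3. It stays near 0 over most of the genome and leaves that band in 17 runs, with long stretches above it on chromosome 7 and below it on chromosome 2.

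The deepest run was the end of chromosome 16 from MLYCD to GAS8 (chr16:83899115-90044960), with 65 genes and a median of −0.76. It was followed by the start of chromosome 4 from ZNF595 to HS3ST1 (chr4:53321-11434327), with 78 genes and −0.66, and by chromosome 2 from GRB14 to RNF25 (chr2:164492417-218672002), the longest with 209 genes and −0.56. In the last, 141 genes were lower and 13 higher. On the higher side chromosome 8 from ZNF596 to PLAT (chr8:232137-42207565) had 136 genes and a median of 0.47, and chromosome 7 from CDK6 to CALU (chr7:92604921-128773400) had 174 genes and 0.46. Chromosome 7 held 4 of the 10 higher runs, and of its 633 genes 332 were higher and 50 lower.

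Named from the runs by their level, TFRC, the transferrin receptor on chromosome 3, stood at 827 and 815 CPM in C3 and at 402 CPM in both C6 libraries (−1.03). PTMA on chromosome 2 (−0.90), the nuclear import receptor IPO5 on chromosome 13 (−0.85) and the actin regulator WDR1 on chromosome 4 (−0.79) were lower in the same way. CTSB, the lysosomal protease cathepsin B on chromosome 8, stood at 276 and 274 CPM in C3 and at 587 and 582 CPM in C6 (1.09). SND1 on chromosome 7 (0.49), CLPTM1L on chromosome 5 (0.57), IDS on chromosome X (0.67) and CDC25B on chromosome 20 (0.45) were higher, and SND1, CLPTM1L and CDC25B were not called relative to neighbours. Of the others, TFRC then stood at −0.54, PTMA at −0.56, IPO5 and WDR1 at −0.45, CTSB at 0.63 and IDS at 0.36. DKC1 lies inside the run at the end of the X chromosome, whose genes had a median of 0.30, and was lower against it; relative to neighbours its difference was −1.38. Of the 22 genes described with the largest differences, GPR35 on chromosome 2 was the 1 that lay in a run, and it was higher where its neighbours were lower.

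Set beside scramble, the runs belonged to C6 for the most part. Of all genes tested, 24.3% were called against scramble in C3 (12.4% higher and 11.9% lower) and 46.7% in C6 (23.8% and 22.8%); both comparisons share the scramble libraries. In 16 of the 17 runs the median of C3 minus scramble was within 0.062 of 0, whereas that of C6 minus scramble was 0.271 to 0.865 in size over all runs. In the run of chromosome 16 the medians were 0.03 in C3 and −0.67 in C6. The exception was the end of chromosome 20 from GMEB2 to PCMTD2 (chr20:63587605-64276226), where C3 stood at 0.46 and C6 at 0.86 above scramble. DNA was not measured, so copy number and expression cannot be told apart here. Of the 5993 genes called relative to neighbours, 5204 were among the 6538 called without that correction, 5152 of them with the same sign.

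**Figure D5:**
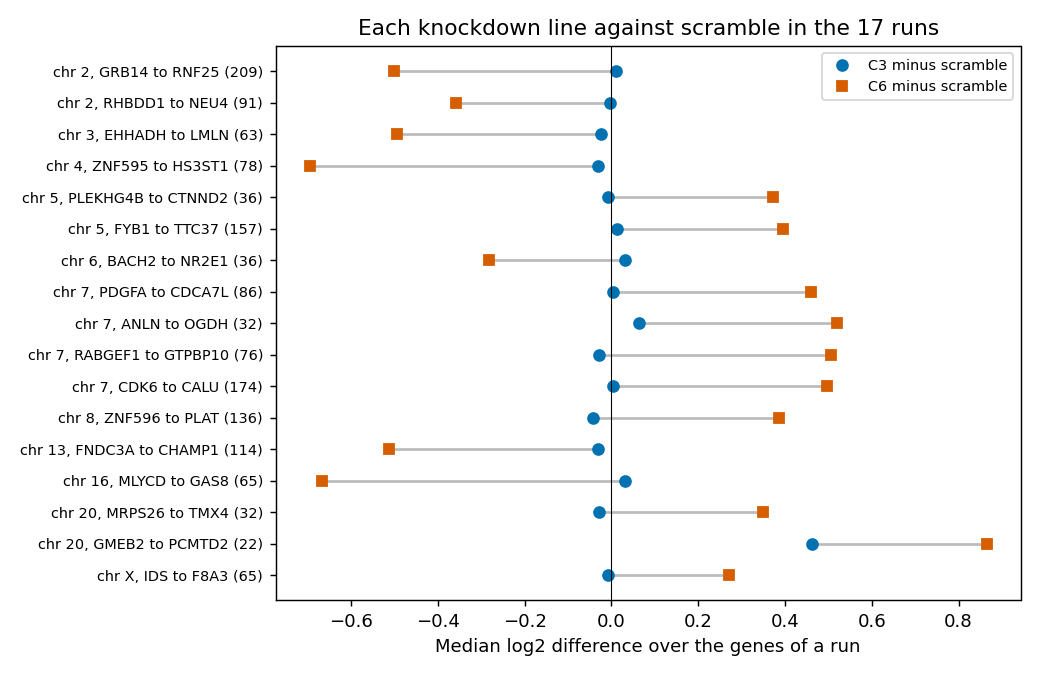
Median log2 difference from scramble of the genes of each of the 17 runs, for C3 and for C6, on 1 axis. The C3 points lie at 0 in 16 runs and at 0.46 in the last run of chromosome 20, while the C6 points lie between 0.271 and 0.865 in size on the side given by the run.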

How the data were processed

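Poly(A)-selected stranded libraries were sequenced as paired ends, per the labels' protocols. The deposited table gives whole-number counts for 19672 genes in 6 libraries, not scaled, per the file headers and the values. The submitters' processing notes name Trimmomatic 0.38, HISAT2 2.1.0, StringTie 2.1.3b, DESeq2 and hg38; the assignment of reads to genes was not given in the sources used here; counts derived from StringTie may be estimates.

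All 6 libraries were fitted as 3 groups (3 residual degrees of freedom) with the robust quasi-likelihood test of edgeR 4.0.16 in R 4.3.3, after TMM scaling and filterByExpr, which kept 13299 genes. The contrast was C6 minus C3, with Benjamini-Hochberg adjustment and a threshold of 0.05. Standard errors follow from the log2 difference and its F value. Positions are those of RefSeq GRCh38.p14, matched for 19450 genes; 13251 tested genes had one. The steps were tested on simulated data.

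Named were DKC1, the 12 largest differences each way (called, at least 5 CPM over the 4 libraries, lines apart, no clone-type, antisense or LINC names), genes with at most 3 counts in each library of a line and at least 5 CPM in the other, up to 4 genes of smallest p from each list and up to 4 of highest level from each run. NOP10, NHP2, GAR1, TERF1, TERF2IP, ACD, EPCAM, KRT8, KRT18, ISG15, IFI6 and ERBB2 were added after their values were seen. Some genes the rule named are not reported here, which leaves 22 of the largest differences. The contrast, the 46 gene lists and the runs were chosen with earlier results of these data known; lists are described by counts and medians only. Genes of the runs were not all printed.

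The alternatives were RLE and upper-quartile scaling, no filter, a filter of 1 CPM in 2 libraries, DESeq2 1.42.0, the 4 knockdown libraries alone, the replicate number as a block, the positional shift (running median of 51 genes) as an offset for C6, other run limits, and leaving out each library.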

Additional observations from a re-analysis of the deposited data

Results flagged for a closer look

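For 14 of the 22 genes described with the largest differences between the lines, the lines lay on opposite sides of scramble, each by a call of edgeR's quasi-likelihood test. The difference between the effects of the lines is the difference C6 minus C3 itself, which was tested, and both effects share the scramble libraries. The genes were chosen by that same difference, which favours opposite sides, so the 14 of 22 is a description. The share of such genes over all genes tested was not computed.

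Lower in C3 and higher in C6 than scramble were 7 genes. SLCO1B3 stood at −5.79 in C3 and 0.36 in C6 (log2 against scramble), which gives 6.14 between the lines. APOL6 stood at −1.27 and 3.61 (4.89 between the lines) and KLRC2 at −1.54 and 3.31 (4.85). SPRR2D stood at −1.20 and 2.85 (4.04), GPR35 at −0.49 and 2.73 (3.22), ATP2B4 at −1.91 and 1.31 (3.22) and FA2H at −1.04 and 2.01 (3.05). The larger part lay in C3 for SLCO1B3 and ATP2B4 and in C6 for the other 5.

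Higher in C3 and lower in C6 than scramble were another 7. PTPN13 stood at 0.81 in C3 and −2.93 in C6, or −3.74 between the lines, SEMA6A at 1.85 and −1.65 (−3.50) and ADGRL2 at 1.28 and −2.17 (−3.45). LHFPL6 stood at 1.78 and −1.59 (−3.37), NREP at 1.19 and −2.09 (−3.28), ST18 at 1.76 and −1.43 (−3.19) and CCND2 at 1.17 and −1.85 (−3.03). DKC1 was lower than scramble in both lines.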

How the results depend on the processing

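Calls in C6 against C3 numbered 6538, and 5684 to 6577 over both other scalings, both other filters, DESeq2, the 4 knockdown libraries alone, the replicate block and the positional shift removed. Leaving out 1 of the 6 libraries gave 5155 to 6423. Upper-quartile scaling gave 47.3% of calls higher in place of 51.1% and moved the median of all genes to −0.02. A running-median limit of 0.4 in place of 0.3 left 886 genes in runs in place of 1472. The replicate number as a block gave 6243 calls; deviations from the group means of same-numbered libraries correlated at −0.05 to 0.06, so the numbers were not taken as pairs.

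Relative to neighbours, genes named from runs turned sign by the construction of that fit: ITPRID2 stood at 0.0025, HDLBP at 0.038, SEPTIN2 at 0.0086, SLC12A7 at −0.14, NSUN2 at −0.14, MARCHF6 at −0.026, CD24 at 0.053, EIF3B at −0.19, PSMA2 at −0.016, BAZ1B at −0.031, ASNS at −0.11, LMO7 at 0.26, RPL13 at 0.44, PCMTD2 at −0.13, DNAJC5 at −0.12 and FLNA at −0.10, as did DNAJC3 of the unfolded protein response at 0.10. RPL13, LMO7 and EIF3B were then called in the new direction, with adjusted p of 9.9e-05, 0.00222 and 0.0213 (edgeR's quasi-likelihood test). The other genes that turned were not called. EPCAM and NOP10, not called in either fit, also turned, to 0.024 and 0.0024. Under the other settings no gene named by the rule turned sign where either fit called it. Genes added after their values were seen were not followed under those settings. With 2 libraries a line, the precision rests on 3 residual degrees of freedom, and genes near the floor of 3 counts have wide errors.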

Other observations

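Some gene families outside the lists were looked up after their values had been seen and have no test as families. Over all genes tested 25.1% were called higher and 24.1% lower, which is the background for every family count below. Laminin chains were higher in C6 in 6 of 10 cases and lower in 0. Laminins anchor epithelial cells in the basement membrane. LAMA3 stood at 57.2 and 53.6 CPM in C3 and at 164 and 187 CPM in C6 (log2 difference 1.67), and LAMB3 at 97.4 and 93.1 CPM in C3 and at 211 and 232 CPM in C6 (1.22). Scramble stood above C6 for LAMA3, at 202 and 221 CPM. Annexins, which bind membranes in the presence of calcium, were higher in 7 of 10 cases and lower in 1. The lower gene, ANXA13, was near the floor, at 0.355 and 0.676 CPM in C3 and at 0 CPM in both C6 libraries. ANXA1 stood at 43.2 and 44.7 CPM in C3 and at 188 and 170.4 CPM in C6 (2.03), and ANXA2 at 1016 and 1067 CPM against 2055 and 2001 CPM (0.96). The caveolins CAV1 and CAV2, neighbours in a stretch of chromosome 7 that was higher in C6, were each higher by 1.84. The genes of that stretch had a median of 0.46. CAV1 stood at 124 and 121 CPM in C3 and at 444 and 437 CPM in C6.

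SR splicing factors were lower in 9 of 11 cases and higher in 0, with SRSF1 at 563 and 558 CPM in C3 and at 361 and 337 CPM in C6 (−0.68) and SRSF5 at −0.62. All 5 Distal-less homeobox genes tested were lower; DLX1 stood at 9.20 and 8.72 CPM in C3 and at 2.58 and 2.70 CPM in C6 (−1.76). Of these 5 genes 3 lie in stretches that shifted together. DLX1 and DLX2 lie in a stretch of chromosome 2 that was lower in C6, with a median of −0.56. DLX6 (−2.18) lies in a stretch of chromosome 7 that was higher in C6, and was lower against it. Of 5 genes of the TMC family 4 were higher and 0 lower, with TMC6 at 15.9 and 17.1 CPM in C3 and at 65.8 and 65.2 CPM in C6 (1.99). Among them TMC4 was low, at 0.646 and 0 CPM in C3 and at 1.78 and 1.69 CPM in C6. Clade B serpins, intracellular protease inhibitors, were also higher in 4 of 5 cases, with SERPINB9 at 2.45 and 2.60 CPM in C3 and at 7.94 and 9.28 CPM in C6 (1.77).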
